A study of Mus musculus with 8 samples.

Results

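The 10 genes described here encode the Toll-like receptors TLR1 to TLR6, the TLR co-receptor CD14, the cytosolic receptors NOD1 and NOD2, and RIPK2, the kinase that NOD1 and NOD2 recruit. They were taken by gene name from the deposited count table, and all 10 were found among its 54658 genes. Total RNA was sequenced from primary articular chondrocytes, isolated from femoral heads of wild-type mice at the age of 3 weeks, which had received 1 ng/mL IL-1β (n = 4) or vehicle (n = 4) for 24 h. The labels number the replicates but do not say whether they came from separate animals or cultures, so p-values measure only the spread between these samples, which may be technical. The libraries held 10992355 to 17456063 counts each, and 3 counts, set here as the limit of detection, correspond to 0.172 to 0.273 CPM (counts scaled to a common library size).

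Toll-like receptors are membrane proteins whose outer leucine-rich repeats bind microbial molecules, and whose inner TIR domain recruits the adaptor MyD88 or TRIF and thereby activates NF-κB, MAP kinases or interferon regulatory factors. The IL-1 receptor carries the same TIR domain and also signals through MyD88. NOD1 and NOD2 detect fragments of bacterial peptidoglycan inside the cell and signal to NF-κB through RIPK2. In joints, TLR2 and TLR4 are also known to respond to fragments of cartilage matrix.

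IL-1β raised the RNA of 6 of these genes. *Nod2* rose 15.1-fold, *Tlr2* 4.44-fold, *Cd14* 3.62-fold, *Nod1* 2.32-fold, *Ripk2* 1.61-fold and *Tlr4* 1.40-fold. *Tlr3* and *Tlr5* did not pass the test, and *Tlr1* and *Tlr6* were too low to be tested. All 14404 genes that exceeded a CPM of 1 in 4 or more libraries entered edgeR's quasi-likelihood test, and a gene passed when its Benjamini-Hochberg adjusted p was under 0.05. The 6 genes that passed, all higher, are to be read against 40.2% of all genes tested that passed, 20.4% higher and 19.8% lower. Genes that passed with a log2 fold change above 1 or below -1 are called differentially expressed genes (DEGs). Among the receptors these were *Tlr2*, *Cd14*, *Nod1* and *Nod2*, 4 of the 8 tested, against 5.21% of all genes tested, 2.86% higher and 2.35% lower. *Nod2* entered the test only through its IL-1β samples, since its vehicle samples were all below the CPM required, so a difference was built into its being tested. With no filter on low counts its log2 fold change was 3.91. The groups did not overlap in any of the 6 genes that passed, with IL-1β higher in each, whereas 36.8% of all genes tested had groups that did not overlap, 18.7% with IL-1β higher and 18.2% with IL-1β lower. The median log2 fold change was 0.95 over the 8 genes tested and -0.0012 over all genes tested. In RNA from whole cultures, a change in the number of cells of a type cannot be told apart from a change in RNA per cell.

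**Figure D1:**
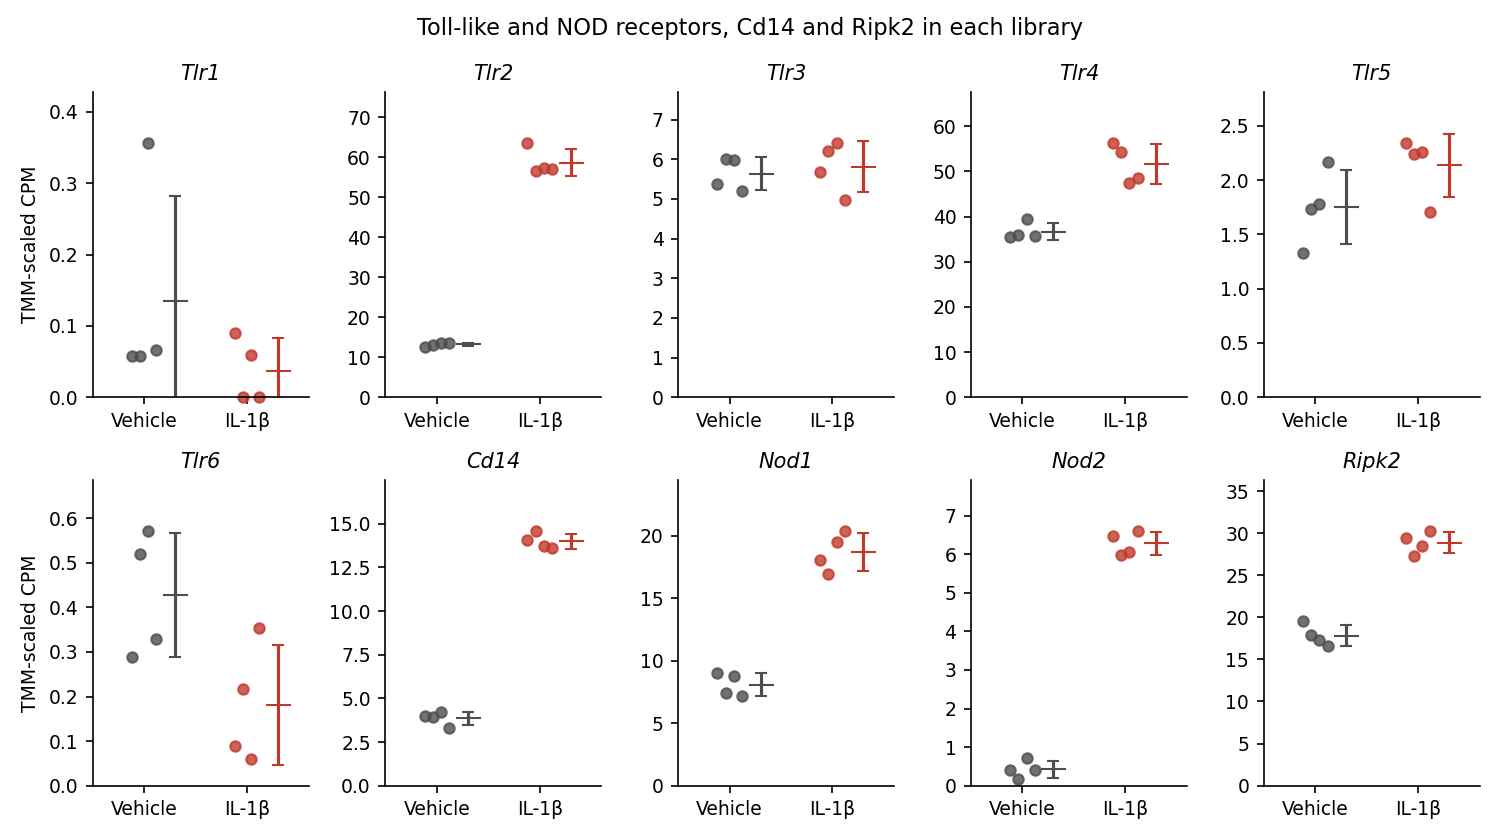
TMM-scaled CPM of the 10 genes in each library, vehicle in grey and IL-1β in red, each panel with its own axis from 0. Points are libraries and bars the mean ± SD (n = 4). *Tlr2*, *Tlr4*, *Cd14*, *Nod1*, *Nod2* and *Ripk2* do not overlap between the groups, and *Tlr1*, *Tlr3*, *Tlr5* and *Tlr6* do.

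*Tlr2* encodes the receptor for bacterial lipoproteins, which it binds as a dimer with TLR1 or TLR6. Its TMM-scaled CPM was 12.6, 13.1, 13.6 and 13.5 in the vehicle samples and 63.6, 56.7, 57.3 and 57.1 in the IL-1β samples. The vehicle samples lay close together, and the lowest IL-1β sample was still far above all of them. The means were 13.2 ± 0.465 and 58.7 ± 3.31 CPM (SD, n = 4), a log2 fold change of 2.15 with a standard error of 0.0558 (adjusted p = 8.6e-23). The gene lies on the minus strand at chr3:83836272-83841767 of GRCm38.

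The RefSeq promoter window of *Tlr2*, 250 bases before to 50 after the start site, was searched on both strands for the NF-κB consensus motif, since IL-1β activates this factor. The window held 3 matches, GGGGAATTCC starting 173 bases before the RefSeq start site, GGGAATTCCC at 172 bases, which overlaps it on all but its outer bases, and GGGACATCCC at 8 bases. Below, in the direction of the gene, are the bases that lie before both the RefSeq and the GENCODE start (chr3:83841768-83841858, minus strand), the 30 bases around the match nearest to the RefSeq start (chr3:83841597-83841626, minus strand), and the 30 bases around the match in the *Tlr3* window, GGGAGTTTCC at 211 bases (chr8:45410572-45410601, minus strand). Capitals mark the matches.
Tlr2, before both starts: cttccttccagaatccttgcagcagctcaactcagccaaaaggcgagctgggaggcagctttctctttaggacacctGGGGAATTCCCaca
Tlr2, at the RefSeq start: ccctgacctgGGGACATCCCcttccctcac
Tlr3, around its match: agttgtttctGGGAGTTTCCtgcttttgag
Promoter windows of 7 of the 10 genes were read (*Tlr1*, *Tlr2*, *Tlr3*, *Tlr5*, *Tlr6*, *Nod1* and *Nod2*), and 2 of the 7 held an NF-κB match, *Tlr2*, which rose, and *Tlr3*, which did not pass the test. The RefSeq start of *Tlr3* lies 700 bases inside the gene as GENCODE gives it, so its match lies within that gene and not before it. That of *Tlr2* lies 159 bases inside, so its match at 8 bases also lies within the gene. The overlapping *Tlr2* matches lie before it. Of all 27025 genes with a window, 5.14% held an NF-κB match. The AP-1 motif TGANTCA was in none of the 7 and in 8.97% of all genes. The repeat of GAAA after a gap of 2 bases that interferon regulatory factors bind was found in 1 of the 7, *Tlr6*, and in 3.99% of all genes. The *Tlr6* window that held it has its RefSeq start 931 bases inside the GENCODE gene. These matches describe letters in a window and were not tested for binding.

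*Tlr4*, on the plus strand at chr4:66827584-66930284, encodes the receptor for bacterial lipopolysaccharide. It had 35.4, 36.0, 39.4 and 35.8 CPM with vehicle and 56.3, 54.3, 47.3 and 48.4 CPM with IL-1β. The groups did not overlap, although the gap between them was smaller than that of *Tlr2*. The means of 36.6 ± 1.88 and 51.6 ± 4.39 CPM gave a log2 fold change of 0.49 (SE 0.0536, adjusted p = 1.26e-08), so *Tlr4* rose without being a DEG. Within a sample, the log2 ratio of *Tlr2* to *Tlr4*, computed as log2 of CPM + 0.5 of each gene, moved from a mean of -1.44 with vehicle to 0.19 with IL-1β. Per length of the gene (CPM per kilobase of exons, RPKM), *Tlr4* was above *Tlr2* in the vehicle samples, at 6.36 to 7.10 against 4.17 to 4.52 RPKM, and below it in the IL-1β samples, at 8.52 to 10.1 against 18.8 to 21.1 RPKM. The difference of 1.62 in the log2 ratio was tested by an exact two-sided permutation test over samples, which gave p = 0.0286, the smallest that the 70 splits of 4 against 4 allow, and 0.0333 after adjustment over the 7 ratios compared.

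*Tlr3* encodes the endosomal receptor for double-stranded RNA, on the minus strand at chr8:45395665-45411080. It had 5.37, 6.01, 5.99 and 5.19 CPM with vehicle and 5.68, 6.20, 6.41 and 4.96 CPM with IL-1β. The groups overlapped across most of their range. The log2 fold change was 0.05 (SE 0.121, adjusted p = 0.784), and -0.0071 without IL-1β replicate 3. Of its exon bases, 7.32% overlap a gene on the opposite strand, *Gm45542*, and reads there may not be told apart because the sources used here do not state whether strand was counted.

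*Tlr5*, on the plus strand at chr1:182954788-182976044, encodes the receptor for bacterial flagellin. It had 1.33, 1.73, 1.78 and 2.17 CPM with vehicle and 2.34, 2.24, 2.26 and 1.7 CPM with IL-1β. IL-1β samples were the 3 highest, but the remaining one lay below 3 of the vehicle samples. The log2 fold change was 0.29 (SE 0.205, adjusted p = 0.286), from 111 reads in the vehicle libraries and 119 in the IL-1β libraries.

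*Tlr1* and *Tlr6* encode the partners of TLR2 and lie next to each other on chromosome 5, at chr5:64924679-64933563 and chr5:64952031-64960097, both on the minus strand. *Tlr1* had 1, 1, 5 and 1 reads in the vehicle libraries and 1, 0, 1 and 0 in the IL-1β libraries. *Tlr6* had 5, 9, 8 and 5 reads with vehicle and 1, 3, 1 and 5 with IL-1β. *Tlr1* exceeded 3 reads in 1 of the 8 libraries, and neither gene reached the CPM needed for the test. Without the filter on low counts, the log2 fold change was -1.21 for *Tlr6* (adjusted p = 0.149) and -1.62 for *Tlr1* (adjusted p = 0.394), so a change of either was not detectable at this depth. The log2 ratio of *Tlr2* to *Tlr6* rose from 3.90 to 6.46, and that of *Tlr2* to *Tlr1* from 4.46 to 6.78 (exact permutation p = 0.0286 and adjusted p = 0.0333 for each). Both rest on few reads, 0 to 5 of *Tlr1* and 1 to 9 of *Tlr6* per library. Most values of these 2 genes lie below the 0.5 CPM that was added, so both ratios largely repeat the rise of *Tlr2*. Under the other pseudocounts and the scaling per length, the difference was 2.15 to 3.14 for *Tlr2*/*Tlr6* and 2.06 to 2.80 for *Tlr2*/*Tlr1*. The log2 ratio of *Tlr1* to *Tlr6* was -0.56 with vehicle and -0.32 with IL-1β, and the groups overlapped (exact permutation p = 0.286).

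The other 6 Toll-like receptors of the mouse, *Tlr7*, *Tlr8*, *Tlr9*, *Tlr11*, *Tlr12* and *Tlr13*, had at most 10 reads in any library, the highest being *Tlr11*, and none could be tested. Thus *Tlr2*, *Tlr3*, *Tlr4* and *Tlr5* were the Toll-like receptors with enough reads for the test.

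*Cd14*, at chr18:36725067-36726798 on the minus strand, encodes the co-receptor that receives lipopolysaccharide from the LPS-binding protein and passes it to TLR4 and its partner MD-2. It had 3.98, 3.93, 4.21 and 3.29 CPM with vehicle and 14.1, 14.6, 13.7 and 13.6 CPM with IL-1β. Each group lay within a narrow range, and the ranges were far apart. The means of 3.85 ± 0.395 and 14.0 ± 0.428 CPM gave a log2 fold change of 1.86 (SE 0.105, adjusted p = 9.3e-15). The log2 ratio of *Cd14* to *Tlr4* rose from -3.10 to -1.84 (difference 1.25, exact permutation p = 0.0286, adjusted p = 0.0333), and the samples of the groups did not overlap.

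Other genes of this step of recognition did not all rise. Of 11 genes for co-receptors, chaperones and relatives of the Toll-like receptors, 7 were tested, of which 4 were higher, 1 was lower and 2 did not pass, where 20.4% of all genes tested were higher and 19.8% lower. *Lbp*, which encodes the LPS-binding protein, had the largest rise, from 6.22 ± 0.551 to 152 ± 8.63 CPM (24.4-fold, log2 fold change 4.61, SE 0.0605, adjusted p = 6.11e-30). *Ly96*, which encodes MD-2, the subunit that binds lipopolysaccharide with TLR4, had 3.10 ± 0.188 CPM with vehicle and 3.85 ± 0.623 with IL-1β (log2 fold change 0.30, adjusted p = 0.139). The other DEG was *Lrrc32* (log2 fold change 1.36), whose product holds latent TGF-β at the cell surface. *Hsp90b1*, the endoplasmic reticulum chaperone that folds most Toll-like receptors, fell by 0.34 on the log2 scale, from 384 to 303 CPM (adjusted p = 6.91e-10). *Unc93b1*, which carries endosomal Toll-like receptors to their compartment, rose by 0.22 (adjusted p = 0.0202).

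*Nod1* and *Nod2* both rose, by unequal amounts. *Nod1*, on the minus strand at chr6:54923949-54972612, had 9.0, 7.39, 8.77 and 7.16 CPM with vehicle and 18.02, 16.9, 19.5 and 20.4 CPM with IL-1β. The means of 8.08 ± 0.937 and 18.7 ± 1.51 CPM gave a log2 fold change of 1.21 (SE 0.0923, adjusted p = 6.88e-12). Tested against a log2 fold change of 1 in place of 0 (glmTreat), *Nod1* did not pass (adjusted p = 0.108), whereas *Tlr2*, *Cd14* and *Nod2* did. The product of *Nod1* binds a peptidoglycan fragment found mostly in Gram-negative bacteria, and the gene was already measured well above the limit of detection in vehicle. *Nod2*, on the plus strand at chr8:88647315-88688474, whose product binds muramyl dipeptide, had 7, 3, 10 and 6 reads in the vehicle libraries and 72, 83, 102 and 93 in the IL-1β libraries. As TMM-scaled CPM these were 0.404, 0.173, 0.713 and 0.394 with vehicle and 6.49, 5.99, 6.06 and 6.60 with IL-1β. The vehicle samples were near the limit of detection, and all IL-1β samples were far above it. The log2 fold change was 3.92 (SE 0.224, adjusted p = 1.2e-14), the largest of the 8 genes tested, and lay between 3.64 and 4.25 over the fits that omitted 1 sample. The unequal rise of these genes was tested as the log2 ratio of *Nod2* to *Nod1*, which moved from -3.24 to -1.50 (difference 1.75, exact permutation p = 0.0286, adjusted p = 0.0333). The size of this difference ranged from 0.587 to 2.51 under the other pseudocounts and the scaling per length, with the same direction. Most vehicle values of *Nod2* lie below the 0.5 CPM that was added, so the size depends on this setting.

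In contrast to the *Tlr2* window, the RefSeq promoter windows of *Nod2* and *Nod1*, searched in the same way, held no match to the NF-κB, AP-1 or interferon regulatory factor motif. They are shown for comparison with *Tlr2*, as the bases before both the RefSeq and the GENCODE start, for *Nod2* chr8:88647097-88647314 (plus strand) and for *Nod1* chr6:54972613-54972862 (minus strand) of GRCm38.p6. Without a match there are no capitals.
Nod2, before both starts: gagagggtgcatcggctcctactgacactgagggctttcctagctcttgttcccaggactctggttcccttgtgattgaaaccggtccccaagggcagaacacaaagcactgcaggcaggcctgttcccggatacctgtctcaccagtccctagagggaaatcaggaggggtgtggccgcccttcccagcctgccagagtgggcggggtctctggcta
Nod1, before both starts: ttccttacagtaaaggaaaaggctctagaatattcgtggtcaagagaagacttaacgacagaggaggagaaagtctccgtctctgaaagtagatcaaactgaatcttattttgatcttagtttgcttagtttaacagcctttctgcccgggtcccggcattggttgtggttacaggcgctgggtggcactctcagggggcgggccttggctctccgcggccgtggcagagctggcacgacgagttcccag
The absence of a match says only that these letters are not in these windows.

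*Ripk2*, on the minus strand at chr4:16122733-16163647, encodes the kinase through which both NOD receptors signal. It had 19.6, 17.9, 17.3 and 16.6 CPM with vehicle and 29.4, 27.3, 28.5 and 30.2 CPM with IL-1β. The groups did not overlap. The means of 17.8 ± 1.28 and 28.9 ± 1.23 CPM gave a log2 fold change of 0.69 (SE 0.0628, adjusted p = 3.16e-10), a rise that was not large enough for a DEG. *Ripk2* rose less than *Nod1*, and the log2 ratio of *Ripk2* to *Nod1* fell from 1.10 to 0.61 (difference -0.48, exact permutation p = 0.0286, adjusted p = 0.0333), with no overlap of the groups.

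**Figure D2:**
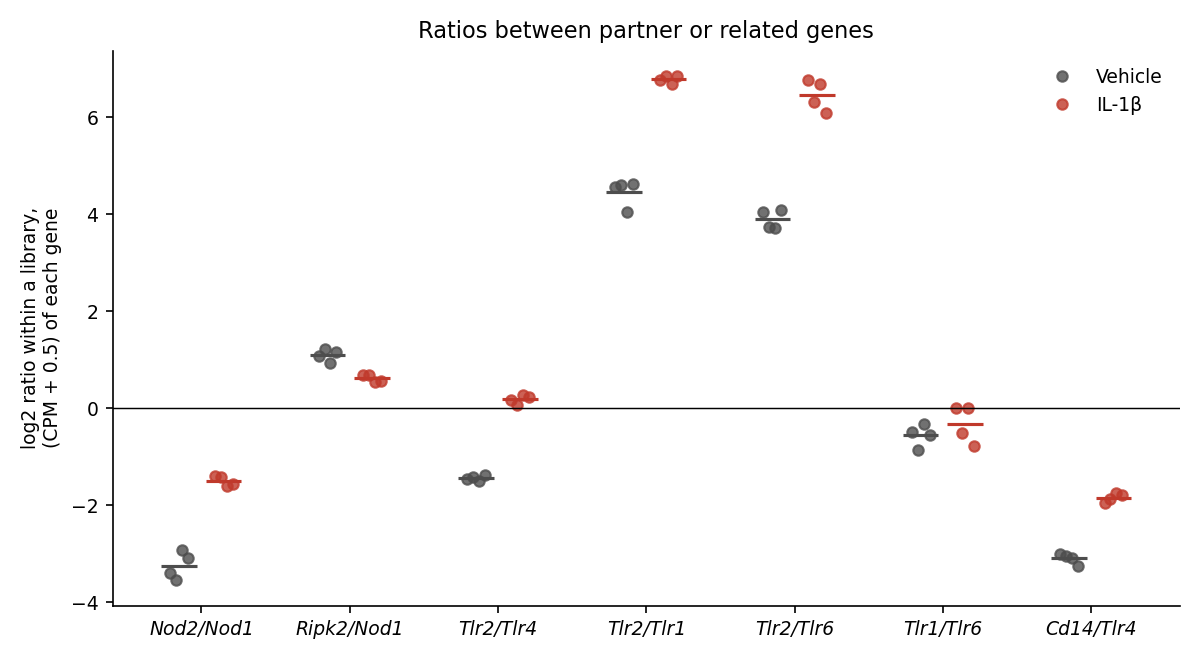
The 7 log2 ratios between genes within each library, from CPM + 0.5, with points for libraries and lines for the mean of 4, vehicle in grey and IL-1β in red. The groups separate for every ratio except *Tlr1*/*Tlr6*, and *Tlr2*/*Tlr4* changes from below to above 0.

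Levels can be set beside each other between genes only per length, here as RPKM. In the vehicle samples, *Tlr4* (mean 6.59 RPKM) and *Ripk2* (6.33 RPKM) were the highest, and their samples overlapped. They were followed by *Tlr2* at 4.38, *Cd14* at 2.45, *Nod1* at 1.59, *Tlr3* at 1.08 and *Tlr5* at 0.366 RPKM, each separate from the next. *Tlr6* (0.115 RPKM) overlapped with *Nod2* (0.0840 RPKM), and *Nod2* with *Tlr1* (0.0402 RPKM).

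With IL-1β the order changed. *Tlr2* stood above all others at 19.5 RPKM. *Ripk2* at 10.2, *Tlr4* at 9.29 and *Cd14* at 8.90 RPKM followed, of which *Ripk2* overlapped with *Tlr4*, and *Tlr4* with *Cd14*. *Nod1* came next at 3.68 RPKM. *Nod2* at 1.25 RPKM overlapped with *Tlr3* at 1.12 RPKM, above *Tlr5* at 0.446, *Tlr6* at 0.0483 and *Tlr1* at 0.0112 RPKM, of which *Tlr6* and *Tlr1* overlapped. The length of *Cd14* listed beside the counts, 1572 bases, is shorter than the 1732 exon bases in GENCODE vM21, while for the other 9 genes the lengths are equal.

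**Figure D3:**
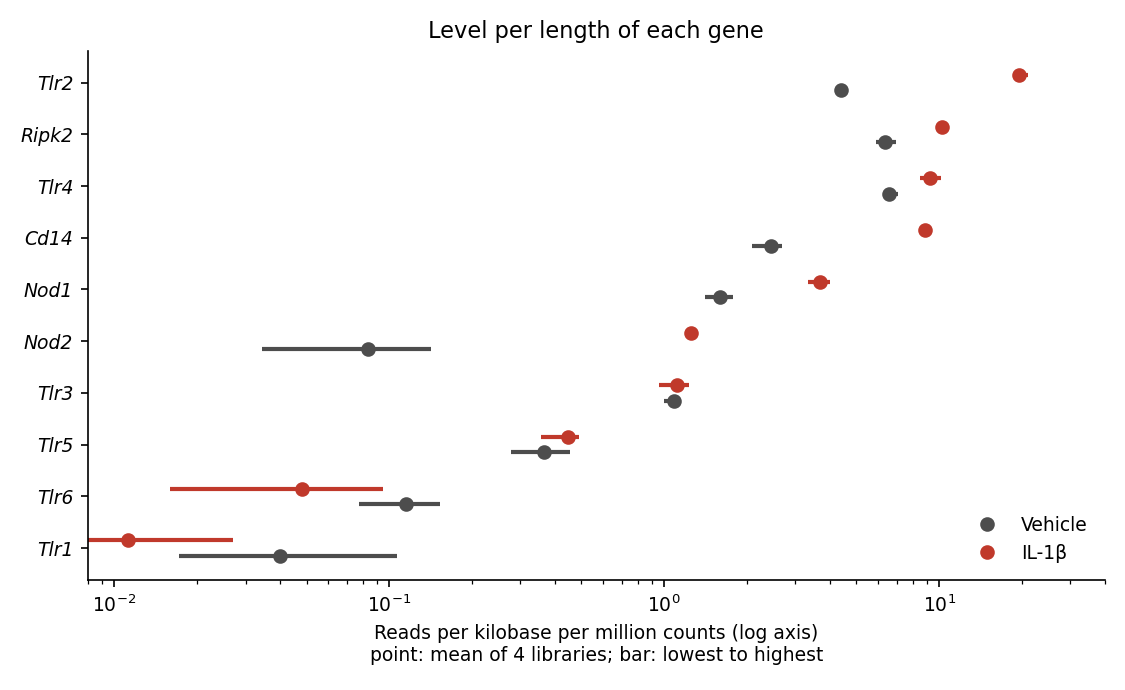
Mean RPKM of the 10 genes on a log axis, vehicle in grey and IL-1β in red, with bars from the lowest to the highest of 4 libraries. *Tlr2* moves from 4.38 to 19.5 RPKM and *Nod2* from 0.0840 to 1.25 RPKM, and the bar of *Tlr1* with IL-1β is clipped at the left edge because 2 libraries had no read.

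Downstream of the receptors, 5 TIR-domain adaptors were looked at. Of the 4 tested, 2 were higher, neither a DEG, and 2 did not pass, where 40.2% of all genes tested passed. *Myd88*, the adaptor of most Toll-like receptors and of the IL-1 receptor, had 62.7 ± 3.83 CPM with vehicle and 68.2 ± 3.23 with IL-1β (log2 fold change 0.12, adjusted p = 0.0331). *Ticam1*, which encodes TRIF, the adaptor of TLR3 and of internalised TLR4, rose by 0.35 on the log2 scale, the most of the list (adjusted p = 0.00222). The smallest change was that of *Tirap* (log2 fold change 0.12, adjusted p = 0.172). *Ticam2*, the bridge from TLR4 to TRIF, had 0 to 4 reads per library.

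NOD1, NOD2 and RIPK2 work with a set of proteins that includes ubiquitin ligases, the LUBAC complex, TAK1 with its TAB partners and deubiquitinases. This set was read as 14 genes, of which 13 were tested. Here 4 were higher, 1 was lower, 8 did not pass and none was a DEG, with a median log2 fold change of 0.01. The 5 of 13 that passed are near the 40.2% of all genes tested, so this count does not set the list apart. *Birc3*, a ubiquitin ligase that also acts on TNF receptor complexes, rose most, from 9.62 ± 0.767 to 17.1 ± 1.29 CPM (log2 fold change 0.83, SE 0.0871, adjusted p = 4.95e-09). *Cyld*, a deubiquitinase that trims RIPK2, rose by 0.30 (adjusted p = 2.44e-07). *Rbck1*, a LUBAC subunit, fell by 0.17 on the log2 scale (adjusted p = 0.000126).

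Among 11 genes listed here as inhibitors of these pathways, 9 were tested, of which 6 were higher and 3 did not pass, where 20.4% of all genes tested were higher. Whether their products act as inhibitors in these cells was not tested. The 3 DEGs were *Irak3*, *Tnfaip3* and *Il1rl1*, where 2.86% of all genes tested were DEGs with a rise. *Irak3*, which encodes IRAK-M, a brake on signalling from MyD88, rose from 6.69 ± 0.181 to 31.8 ± 2.05 CPM (log2 fold change 2.24, SE 0.0758, adjusted p = 4.78e-20). *Tnfaip3*, which encodes the ubiquitin-editing enzyme A20, rose from 3.05 ± 0.0964 to 8.18 ± 0.761 CPM (log2 fold change 1.42, adjusted p = 1.27e-10). *Il1rl1*, the receptor of IL-33, rose from 1.28 ± 0.238 to 3.11 ± 0.326 CPM. The lowest value was that of *Cd200* (log2 fold change -0.23, adjusted p = 0.274).

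Other sensors of microbial molecules were also examined. Of 13 cytosolic sensors and their adaptors, 8 were tested, with 2 higher, 1 lower and no DEG, and the 3 that passed are again near the 40.2% of all genes tested. *Ifih1*, the sensor MDA5 of long RNA, had 2.10 ± 0.251 CPM with vehicle and 3.16 ± 0.822 with IL-1β (log2 fold change 0.57, adjusted p = 0.0221), and *Cgas*, the sensor of cytosolic DNA, fell from 1.98 ± 0.295 to 1.12 ± 0.286 CPM (adjusted p = 0.00408). *Nlrp3*, the inflammasome sensor, had 1, 0, 1 and 0 reads with vehicle and 2, 4, 7 and 5 with IL-1β, below the CPM needed for the test. Without the filter on low counts it passed (log2 fold change 3.04, adjusted p = 0.00411), a value that rests on 0 or 1 read per vehicle library. Of 10 lectin and scavenger receptors of the cell surface none was tested, since the highest value in any library was 0.642 CPM, and *Marco* and *Olr1* had no read.

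Genes that Toll-like receptors and NODs are known to induce, many of which IL-1β induces too, were largely higher where they could be tested. Of 10 such genes 7 were tested, and 6 of these were DEGs, all higher, where 2.86% of all genes tested were DEGs with a rise. One of them, *Ccl2*, entered the test only through its IL-1β samples, as *Nod2* did. *Nos2*, the inducible nitric oxide synthase, rose most (log2 fold change 5.40, SE 0.0892, adjusted p = 1.54e-27). *Ptgs2*, which encodes COX-2, had 385 ± 9.27 CPM with vehicle and 367 ± 8.11 with IL-1β (log2 fold change -0.07, adjusted p = 0.0793). *Il6* had no read in any vehicle library and 17, 14, 17 and 26 reads in the IL-1β libraries. This is at least 7.11-fold higher when 3 counts per library are set in vehicle. It narrowly missed the filter, a CPM above 1 in 4 libraries before TMM scaling, and was not tested. Without the filter on low counts it passed (log2 fold change 7.32, adjusted p = 6.26e-20). *Tnf* had 0, 2, 2 and 0 reads with vehicle and 0, 1, 1 and 1 with IL-1β, and *Ifnb1* had no read, so neither was tested. Over all 80 genes of these lists, 48 were tested, of which 24 were higher and 3 lower, and 11 were DEGs, all higher. Over all genes tested, 20.4% were higher, 19.8% lower and 2.86% DEGs with a rise. The lists were chosen with results of these data known.

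**Figure D4:**
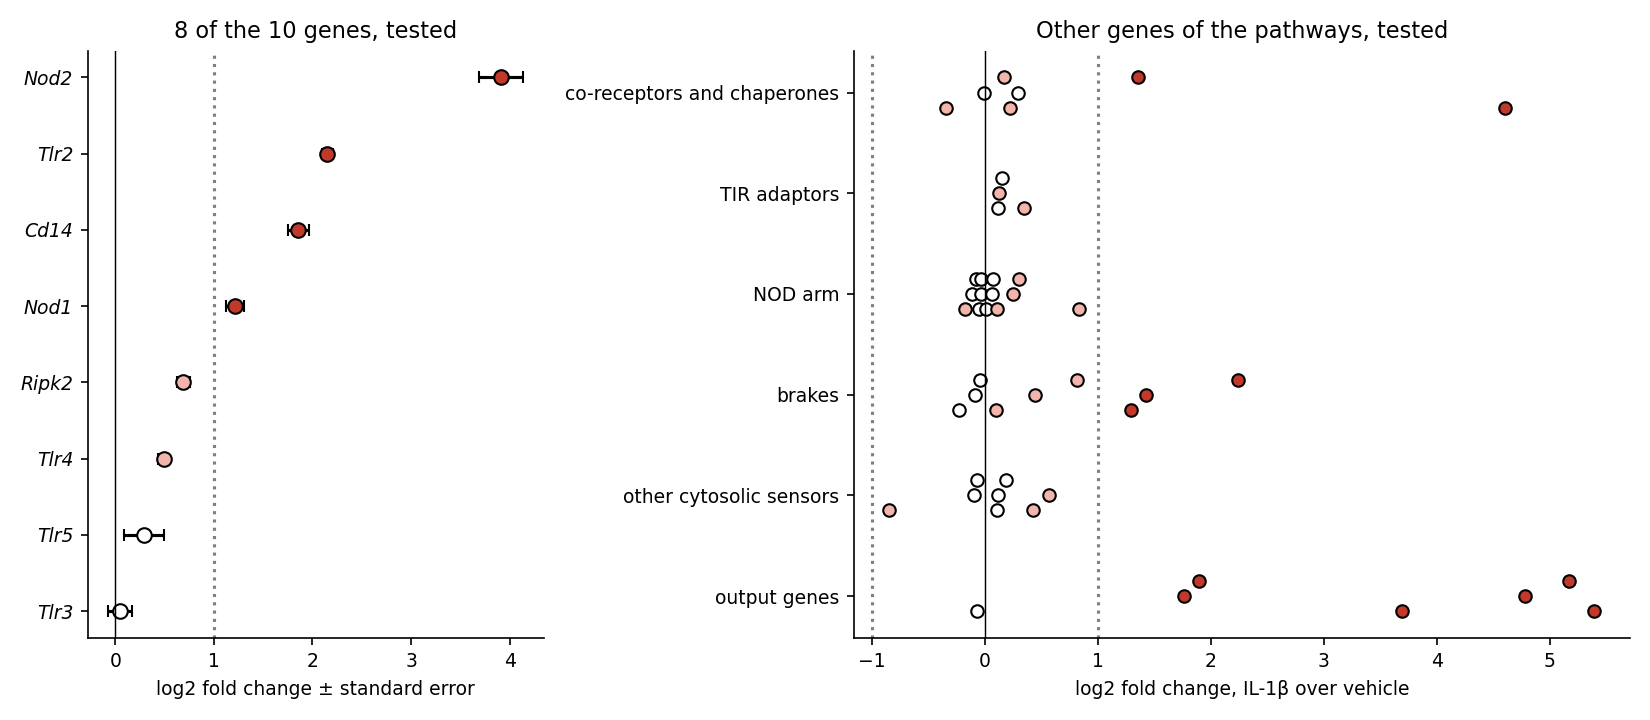
Left, log2 fold changes ± SE of the 8 genes tested. Right, log2 fold changes of the 48 tested genes of the related lists. Red marks DEGs, pale red other genes with an adjusted p under 0.05 and white genes that did not pass. Dotted lines stand at a log2 fold change of 1 and, on the right, also of -1. The TIR adaptors lie between 0.12 and 0.35, while *Nod2* lies at 3.92 and *Lbp* at 4.61.

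Since TLR2, TLR4, CD14 and NOD2 are also abundant in macrophages, markers of other cells were examined in the same libraries. The chondrocyte markers were present throughout, with a summed level of 16981 to 17565 CPM in the vehicle samples and 6137 to 6663 CPM in the IL-1β samples. Of these 10 genes, 9 were lower while *Prg4* was higher, where 19.8% of all genes tested were lower and 20.4% higher. Of 15 macrophage and monocyte markers, 2 were abundant enough for the test, *Cd68*, which rose by 0.67 on the log2 scale, and *Lyz2*, which fell by 0.60, and the summed level of the 15 was 12.1 to 14.3 CPM with vehicle and 16.6 to 19.6 CPM with IL-1β. A narrower set of 6 of these markers, *Ptprc*, *Adgre1*, *Csf1r*, *C1qa*, *C1qb* and *C1qc*, summed to 0.692 to 1.31 CPM with vehicle and 0.922 to 1.37 CPM with IL-1β. The ranges of these 6 overlapped between the groups, while those of all 15 did not. *C1qb* was at 0 in every library, and *Csf1r*, the most abundant of the 6, had 7 to 19 reads. *Cd68*, the most abundant of the 15 and not among the 6, had 129 to 175 reads with vehicle and 144 to 273 with IL-1β. *Tlr2* had 191 to 227 reads with vehicle and 706 to 964 with IL-1β.

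Markers of other cells were at most 2 reads per library for neutrophils, 5 for T and B cells and 9 for endothelial cells. Markers of synovial fibroblasts summed to 43.3 to 46.3 CPM with vehicle and 85.1 to 89.8 CPM with IL-1β. The 3 of these 5 genes that were tested, *Pdgfra*, *Pdpn* and *Cd34*, were higher, where 20.4% of all genes tested were higher. *Thy1* had 0 to 11 reads and *Clic5* 0 to 4. The osteoclast markers summed to 109 to 111 CPM with vehicle and 132 to 138 CPM with IL-1β, nearly all of it *Ctsk*, and *Dcstamp* was at 0. The part of these changes in marker levels, those of chondrocytes and macrophages included, in the rise of the receptors was not tested.

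**Figure D5:**
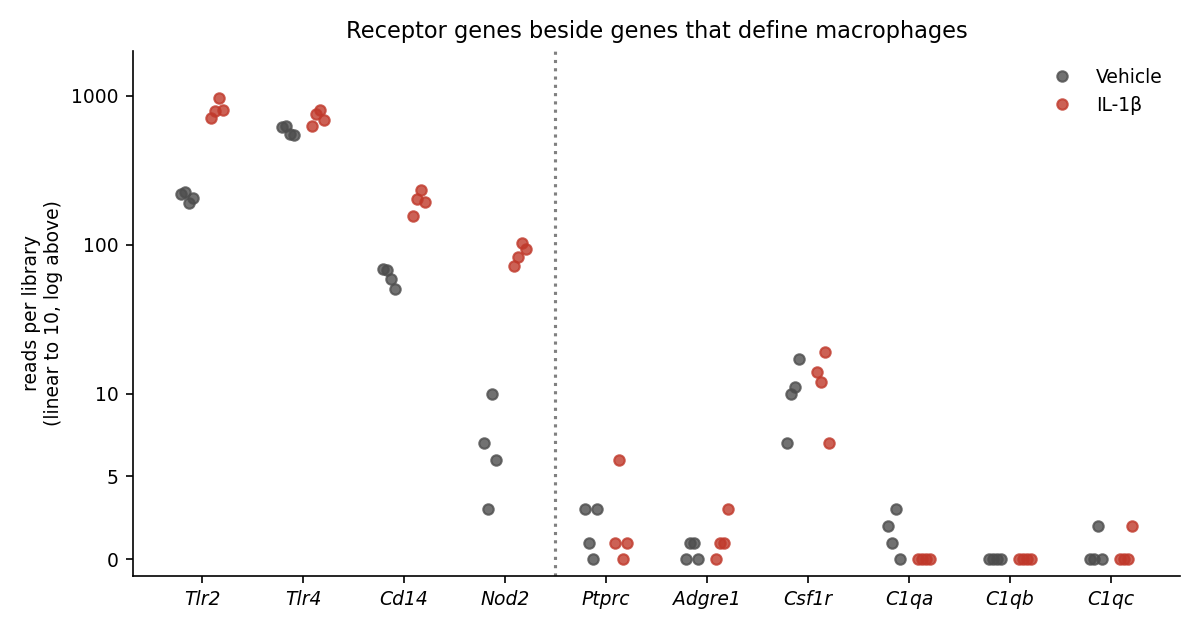
Reads per library, on an axis that is linear to 10 and logarithmic above, for *Tlr2*, *Tlr4*, *Cd14* and *Nod2* and, right of the dotted line, for 6 of the 15 macrophage and monocyte markers. The highest of the 6 is *Csf1r* with 7 to 19 reads over both groups. *Cd68*, the highest of the 15 with 129 to 273 reads, is not shown.

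By likeness of pattern, measured as the root mean square distance of log2(CPM + 0.5) over the 8 samples after centring on the vehicle mean, the genes nearest to *Tlr2* among 10580 genes were *Ampd3* (distance 0.0490), *Pdzd2* (0.0503) and *Ltbp2* (0.0542). Those nearest to *Nod2* were *Gdnf* (0.221), *Mt2* (0.226) and *Ereg* (0.287). *Nod2* averaged 0.421 CPM in vehicle, below the 0.5 CPM added, so its change is compressed in this measure. The fitted log2 fold changes were 3.68 for *Gdnf*, 3.40 for *Mt2* and 3.13 for *Ereg*, against 3.92 for *Nod2*. *Ampd3* encodes an AMP deaminase, *Ltbp2* a microfibril protein, *Gdnf* a neurotrophic factor, *Mt2* a metallothionein and *Ereg* a ligand of the EGF receptor.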

How the data were processed

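RNA-Seq of 8 samples was analysed. Reads were trimmed (cutadapt), aligned to mm10 with GENCODE vM20 (STAR, 2.4.2a in the submitters' notes) and assigned to genes (featureCounts) by the authors. The deposited values are whole-number counts per gene beside a gene length in bases (unit other), which was used here for RPKM. Whether these counts precede or follow the study's batch correction with RUVseq is not given in the sources used here. The study's other experiments, the promoter windows of *Cd14*, *Tlr4* and *Ripk2*, and protein sequences were not used here.

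The members and gene lists were chosen with earlier results of these data known. Samples were grouped by treatment label. Counts were scaled by TMM (factors 0.984 to 1.01) and compared in R 4.3.3 by the quasi-likelihood test of edgeR 4.0.16 (with limma 3.58.1), with treatment as the only term. Genes had to exceed a CPM of 1 in 4 or more libraries, and p-values were adjusted over all 14404 genes. The code was tested on simulated data. Ratios between genes were compared with an exact permutation test, two-sided. Named were all 10 members, counts for each list with its largest rise and fall, and the 3 nearest patterns among genes with a mean of at least 5 CPM in either group. *Ly96*, *Lrrc32*, *Unc93b1*, *Myd88*, *Ticam2*, *Cyld*, *Tnfaip3*, *Il1rl1*, *Ptgs2*, *Il6*, *Tnf*, *Ifnb1*, *Ccl2*, *Nlrp3*, *Marco* and *Olr1* were named beyond this rule, after their values were seen. *Mb21d1* is listed in the table as *Cgas*.

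Positions come from GENCODE vM21 and promoter windows from RefSeq (GRCm38.p6), both of the assembly of mm10. The gene *Gm26917* took 13.2% to 14.6% of the counts in every library. The limit of detection of 3 counts covers counting error only, because reads without molecular identifiers may share a molecule. Alternatives were DESeq2 1.42.0, its size factors or the library size for TMM, other filters or none, glmTreat, 1 RUVs factor, the replicate number as a block, other pseudocounts and the ratio per length, and each sample left out. Python 3.11.15 with numpy 2.4.6 and pandas 2.3.3 was used for the remaining values.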

Additional observations from a re-analysis of the deposited data

Results flagged for a closer look

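Values of 4 samples were compared 18 times (the CPM of the 8 genes tested and the total count of the library, in both treatments), and in 3 of these 1 sample stood apart from its group by Dixon's ratio at the 95% level, which chance gives in about 1 in 20 groups, here 0.9. IL-1β replicate 1 was high in *Tlr2*, at 63.6 CPM, where its group otherwise had 56.7 to 57.3 CPM. Vehicle replicate 3 was high in *Tlr4*, at 39.4 CPM beside 35.4 to 36.0 CPM. IL-1β replicate 4 was low in *Tlr5*, at 1.7 CPM beside 2.24 to 2.34 CPM. The log2 fold change of *Tlr2* stayed between 2.11 and 2.16, that of *Tlr4* between 0.45 and 0.53 and that of *Tlr5* between 0.17 and 0.41 when each sample was left out in turn, with the calls of all 3 genes as before.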

How the results depend on the processing

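The counts of receptor genes that passed (6) and that were DEGs (4) did not change under DESeq2, its size factors, the total library size, no filter on low counts or 1 RUVs factor, or with any 1 sample left out. With a CPM above 1 required in all 8 samples, *Nod2* was no longer tested, which left 5 and 3. DEGs among all genes numbered 751, against 1206 with no filter on low counts and 437 with glmTreat (without each sample, 746 to 769). Under glmTreat the log2 fold changes were 0.49 for *Tlr4* (adjusted p = 1), 1.21 for *Nod1* (adjusted p = 0.108) and 0.69 for *Ripk2* (adjusted p = 1), none of which passed this test against a log2 fold change of 1. That of *Tlr3* was -0.0071 without IL-1β replicate 3 and lay between -0.0071 and 0.12 over all samples left out. Correlations of deviations between same-numbered samples were 0.0353, -0.0462, -0.0127 and -0.0689, so the replicate numbers were not taken as pairing the samples. With the replicate block, 751 genes were DEGs, and the calls of the 8 receptor genes did not change. In the ratios, the block compares 4 pairs by signs, which cannot reach an adjusted p under 0.05 (0.146 for all 6), with differences of 1.75 for *Nod2*/*Nod1*, -0.48 for *Ripk2*/*Nod1*, 1.62 for *Tlr2*/*Tlr4*, 2.33 for *Tlr2*/*Tlr1*, 2.56 for *Tlr2*/*Tlr6* and 1.25 for *Cd14*/*Tlr4*. With 1 sample left out, 3 against 4 samples cannot pass either (adjusted p = 0.0667), and the differences, in the same order, were 1.64 to 1.85, -0.54 to -0.44, 1.6 to 1.67, 2.19 to 2.38, 2.46 to 2.69 and 1.2 to 1.29. Depth limits *Tlr1*, *Tlr6* and *Nlrp3*, and *Nod2* in vehicle.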

Other observations

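The miRNA that the study followed, miR-146a-5p, was earlier reported to target *Traf6* and *Irak1*, genes of Toll-like receptor signalling. It is encoded at chr11:43374435-43374456 on the minus strand, and its mature sequence is shown with the seed (bases 2 to 8) in capitals.
mmu-miR-146a-5p: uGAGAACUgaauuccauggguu
A 7-base match to this seed, AGTTCTC, was found in the 3′ UTR of 0 of the 10 genes, whose 3′ UTRs were 148 to 1508 bases long, and in 11.3% of the 11795 tested genes with an annotated 3′ UTR. The miRNA itself was not measured in the counts used here, and other kinds of site were not searched.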
